A study of Mus musculus with 6 samples.

Results

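The Myc family genes described here are 9 genes, Myc, Mycn, Mycl, Mxd1, Mxd3, Mxd4, Mxi1, Mnt and Mlx, taken by gene name from a table of 48440 genes. All 9 had counts in every library and passed the filter on low counts, as did 14664 genes in all. The 6 libraries are clonal lines of male mouse induced pluripotent stem cells, 3 with a Cas9 knockout of Tet1, an enzyme that oxidises 5-methylcytosine in DNA (clones 14, 30 and 33, called replicates 1 to 3), and 3 non-targeted lines (clones 49, 51 and 52). The knockout genotype is given as wt/wt;GFP/wt with Tet1 Cas9 mut/mut, and the non-targeted genotype as wt/wt;GFP/wt. Both groups carry the Pou5f1-EGFP reporter (GFP/wt), and their strain label names Tet1tm1Kohx on B6 together with the transgenic B6;CBA-Tg(Pou5f1-EGFP)2Mnn/J. All are sublines of iPSC34.3 at passage 14 + 4, and the labels give both groups the same growth text, in which cells received Cas9 protein, a Tet1 guide and a repair template before colonies were picked. The same labels give 12 h with an enhancer for both groups. Each library is 1 clone, so every p-value rests on how much clones of one parental line differ. How that line was reprogrammed is not stated in the labels, and a count for Myc would not separate the endogenous gene from any transgene copy of its sequence. Where 3 values follow each other, they are replicates 1, 2 and 3 of a group in that order.

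Myc proteins are basic helix-loop-helix leucine zipper transcription factors that bind DNA as heterodimers with Max, at the sequence called the E-box, and activate genes of ribosome production, biosynthesis and cell division. The Mxd proteins, Mxi1 and Mnt also pair with Max, bind the same sequence and recruit Sin3 corepressors, so they oppose Myc. Mlx is a Max-like protein that pairs with Mxd1, Mxd4, Mnt and the glucose-sensing factors Mlxip and Mlxipl. In pluripotent cells Myc and Mycn support self-renewal and are thought to cover for each other.

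Because these proteins bind the E-box CACGTG, the stretches before the start sites of the members were searched for it. A RefSeq promoter entry (GRCm38.p6) was matched for 8 of the 9 members, all except Myc, in 10 windows. In the 250 bases before the start, 3 of the 10 windows held CACGTG, a sequence that reads the same on both strands, against 6.02% of 32817 windows of this length. The 3 were those of Mlx, Mnt and Mxd4. They are shown with 27 bases on either side, 5′ to 3′ in the direction of the gene, with the E-box in capitals. A match is a description of the letters and not a measured binding site. CACGTG itself contains a CpG, and the member windows had a median of 13.5 CpGs against 6 over all windows. The 6.02% is therefore not a like-for-like share.
Mlx: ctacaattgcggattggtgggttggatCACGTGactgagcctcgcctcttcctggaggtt
Mnt: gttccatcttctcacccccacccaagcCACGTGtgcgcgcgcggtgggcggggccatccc
Mxd4: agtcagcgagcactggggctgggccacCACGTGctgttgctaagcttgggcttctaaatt

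These lie at chr11:101087223-101087282 (+ strand), chr11:74830774-74830833 (+ strand) and chr5:34187897-34187956 (- strand). The Mlx stretch overlaps an annotated exon by 6 bases, and the other 2 lie outside annotated exons. Tet1 acts on CpG dinucleotides, so the CpGs of these windows were also counted. The 250-base windows of the members held between 11 (Mycn) and 42 (a window of Mxi1, which has 3) CpGs, against a median of 6 over all windows. The windows of Mxd1 and Mnt held 32 and 26, and DNA methylation was not measured. Mxd3 is shown because its knockout clones all lay below the non-targeted clones (values below). In its window 22 CpGs were found. The first 150 bases of its window, outside annotated exons (chr13:55329832-55329981, - strand), hold 12 of them, in capitals.
Mxd3: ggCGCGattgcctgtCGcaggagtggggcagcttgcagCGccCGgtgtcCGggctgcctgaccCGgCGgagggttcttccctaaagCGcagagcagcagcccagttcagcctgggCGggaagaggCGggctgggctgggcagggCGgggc

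Total counts were between 11937909 and 16189554 per library, so 1 read was worth 0.0624 to 0.0827 CPM (counts per 1000000 counts of the library, scaled with the TMM factors of edgeR). Tet1, the targeted gene, had 365, 231 and 288 CPM in knockout replicates 1 to 3 against 966 to 1158 CPM in the non-targeted lines. Its log2 fold change was -1.84 ± 0.16 (SE), with an adjusted p of 0.0703 in edgeR and 9.4e-20 in DESeq2. The targeted gene itself thus did not pass edgeR here, so not passing edgeR does not show that a gene is unchanged. Knockout replicate 1 stood apart from the other 2 knockout clones. Across genes, its log2 CPM correlated at 0.984 to 0.986 with the non-targeted libraries and at 0.973 and 0.958 with knockout replicates 2 and 3. Results are therefore also given without it, a choice that rests on these same data. Of the knockout clones it was the one most like the non-targeted lines. Without it, edgeR calls rose from 0% to 29.1% of all genes, so p-values without it are a description only. All 15 pluripotent cell markers had counts in every library, with summed levels of 4145 to 6322 CPM in the knockout clones, and 6149 to 6847 CPM in the non-targeted lines. Of the 15, 14 had a negative log2 fold change (median -0.53). For 4 the knockout clones all lay below the non-targeted ones, as for 14.7% of all genes. All 31 fibroblast markers in the table, listed because the cells grew on embryonic fibroblast feeders, also had counts in every library, and none was at 0. Their summed level was 2310 to 2936 CPM in the knockout clones, and 2216 to 2589 CPM in the non-targeted lines, and the list's median log2 distance from the average non-targeted level was 0.61, 0.79 and 1.80 in the knockout against -0.31 to 0.21. The sum follows the genes of highest level, while the median weighs each gene alike. Of the 29 tested, 27 had a positive log2 fold change (median 1.182, and 0.59 without knockout replicate 3). For 21 the knockout clones all lay above the non-targeted ones, as for 14.8% of all genes. None passed edgeR, and DESeq2 called 16 higher, beside 5.5% of all its tested genes. In such bulk libraries a change in the share of a cell type and a change of RNA per cell cannot be told apart.

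None of the 9 members passed edgeR's quasi-likelihood test (0 of 9 at an adjusted p of 0.05, where 0% of all genes tested passed). At an unadjusted p under 0.05 there were 2 members, Myc (higher, as were 14% of all genes) and Mxd3 (lower, as were 10.8%), together beside 24.8% of all genes. DESeq2 called 0 of 9, where it called 8.65% of its tested genes (5.5% higher and 3.15% lower), and limma voom also called 0. Members whose knockout and non-targeted clones did not overlap numbered 2 of 9, Mxd3 and Mlx, both lower, beside 29.5% of all genes (14.8% higher and 14.7% lower). Each member is described by its values below.

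**Figure D1:**
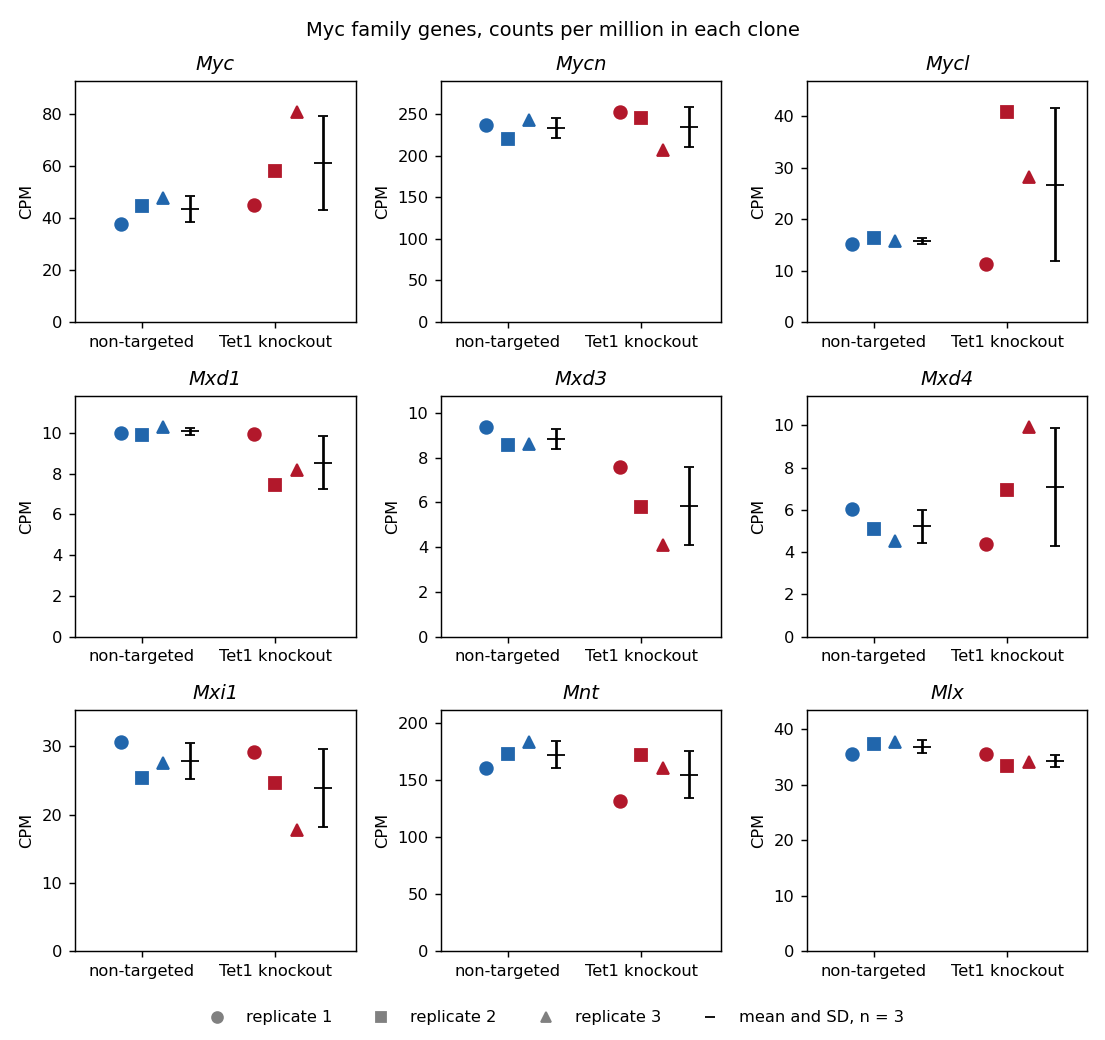
Level of each member in CPM (vertical axes, each starting at 0) in the 3 non-targeted (blue) and 3 Tet1 knockout clones (red), with the marker shape giving the replicate and the bar the mean and SD (n = 3). Mycn stayed between 207 and 252 CPM in all 6 clones, while Mycl ran from 11.2 CPM in knockout replicate 1 to 40.7 CPM in knockout replicate 2.

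Among the activators, Mycn, the family member long known from neuroblastoma and a main Myc of early embryonic cells, was the most abundant. On chromosome 12 (12936096 to 12941914, GRCm38, gene ENSMUSG00000037169.14), it had 252, 245 and 207 CPM in the knockout clones, and 237, 220 and 243 CPM in the non-targeted lines. The groups overlapped, with the 2 highest values and the lowest value all among the knockout clones. The log2 fold change, knockout minus non-targeted, was 0.01 ± 0.09 (SE, n = 3 per group; edgeR adjusted p = 0.968), with a 95% interval from -0.21 to 0.23. A value this near 0 has no stable direction and was below 0 under 5 of the 12 alternative settings, DESeq2 among them.

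Myc, the family's founding proto-oncogene and a reprogramming factor, lies on chromosome 15 (61985341 to 61990374, ENSMUSG00000022346.14). It had 44.9, 57.9 and 80.5 CPM in the knockout clones, and 37.8, 44.4 and 47.7 CPM in the non-targeted lines. Knockout replicates 2 and 3 lay above every non-targeted clone, and replicate 1 lay within their range. The log2 fold change was 0.50 ± 0.21 (SE), an interval from 0.01 to 0.98, with an unadjusted p of 0.0469 and an adjusted p of 0.196 in edgeR, and 0.155 in DESeq2. The value rested mostly on knockout replicate 3: without it the log2 fold change was 0.25 (adjusted p = 0.457 in edgeR).

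Mycl, the family member first found in lung cancer, lies on chromosome 4 (122995652 to 123002485, ENSMUSG00000028654.13). It had 11.2, 40.7 and 28.3 CPM in the knockout clones, and 15.3, 16.3 and 15.8 CPM in the non-targeted lines. The non-targeted clones lay close together, while knockout replicate 1 was the lowest library of all and replicates 2 and 3 the highest. The SD of log2 CPM was 0.95 among the knockout and 0.05 among the non-targeted clones, against medians of 0.22 and 0.14 over all genes tested. Its log2 fold change of 0.76 ± 0.40 (edgeR adjusted p = 0.275; adjusted p = 0.197 in DESeq2) had an interval from -0.18 to 1.69. It was 1.12 ± 0.17 without knockout replicate 1 and 0.33 without knockout replicate 2.

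**Figure D2:**
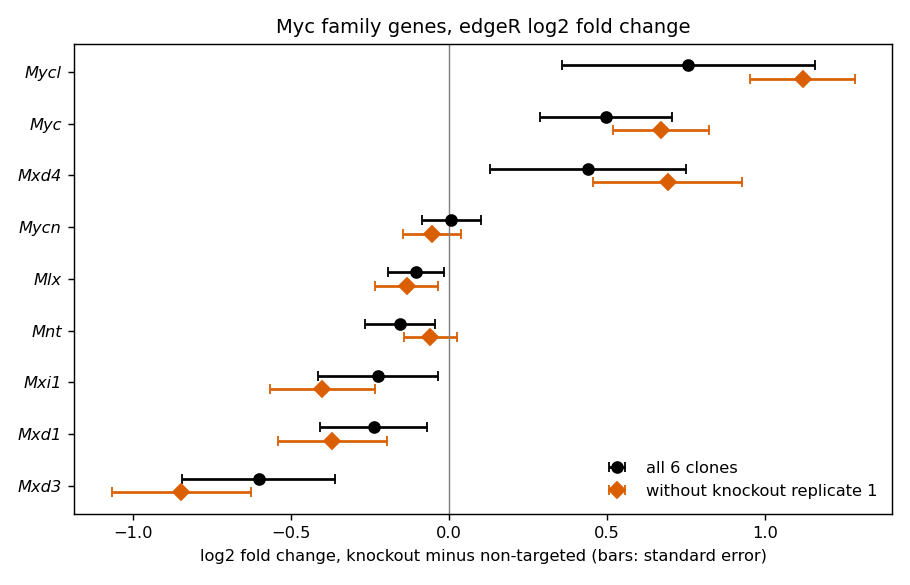
Log2 fold change of each member in edgeR's quasi-likelihood test (horizontal axis, knockout minus non-targeted, bars the standard error), with all 6 clones (black) and without knockout replicate 1 (orange). Without that clone Mycl moved from 0.76 to 1.12, Myc from 0.50 to 0.67 and Mxd3 from -0.60 to -0.85, while Mycn stayed near 0.

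Levels of different genes can be set side by side only per length, so CPM was divided by the kilobases of annotated exon. On this scale the 3 Myc genes summed to 95.7, 106 and 99.3 CPM per kilobase in knockout replicates 1 to 3 and to 89.7, 87.1 and 95.2 in the non-targeted clones. Mycn held 80.3%, 76.6% and 77.4% of that sum in the non-targeted clones and 79.8%, 70.3% and 63.1% in knockout replicates 1 to 3. Its share was lower in knockout replicates 2 and 3 than in any non-targeted clone, and within the non-targeted range in replicate 1. The share of Myc was 17.3%, 20.2% and 29.8% in the knockout and 15.5% to 18.8% in the non-targeted clones, and that of Mycl 2.90%, 9.53% and 7.05% against 4.10% to 4.65%. Mycn thus remained the largest of the 3 in every clone.

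**Figure D3:**
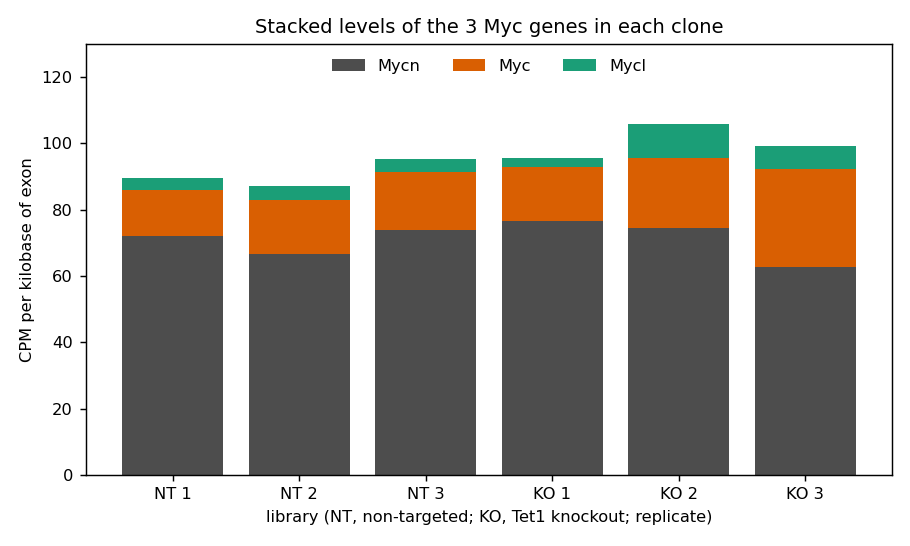
Stacked bars of the levels of Mycn (grey), Myc (orange) and Mycl (green) in CPM per kilobase of exon (vertical axis from 0) in each library (NT, non-targeted; KO, Tet1 knockout). Mycn makes up 63.1% of the bar in knockout replicate 3 and 80.3% in non-targeted replicate 1.

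Among the antagonists, Mxd3, a Mad protein found in dividing progenitors, lies on chromosome 13 (55325168 to 55329758, ENSMUSG00000021485.13), in the opposite direction to Prelid1, which overlaps its end by 104 bases. It had 7.59, 5.79 and 4.10 CPM in the knockout clones, and 9.36, 8.55 and 8.62 CPM in the non-targeted lines. Every knockout clone lay below every non-targeted clone, and replicate 3 was the lowest. The log2 fold change was -0.60 ± 0.24, with an interval from -1.17 to -0.04, an unadjusted p of 0.0401 and an adjusted p of 0.183 in edgeR (adjusted p = 0.144 in DESeq2). Without knockout replicate 3 it was -0.40 (edgeR adjusted p = 0.379). These levels rest on 57 to 99 reads per knockout library and 116 to 137 per non-targeted library.

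Mxi1, a Mad protein first described as a Max interactor, had 29.1, 24.7 and 17.8 CPM in the knockout clones, and 30.7, 25.3 and 27.6 CPM in the non-targeted lines (chromosome 19, 53310506 to 53375810). Knockout replicate 3 was well below all others, replicate 2 just below the lowest non-targeted clone and replicate 1 within their range. This gave a log2 fold change of -0.22 ± 0.19 (edgeR adjusted p = 0.482), or -0.05 without knockout replicate 3 and -0.40 without replicate 1. Mxd1, the founding Mad protein, which increases as many cell types differentiate, had 9.97, 7.45 and 8.20 CPM against 10.01, 9.92 and 10.3 CPM (chromosome 6, 86647042 to 86669161). Replicates 2 and 3 lay below every non-targeted clone, and replicate 1 within the non-targeted range. Its log2 fold change was -0.24 ± 0.17 (edgeR adjusted p = 0.405), and it was -0.37 without knockout replicate 1 and -0.14 without knockout replicate 2. A gene model without counts overlaps Mxd1 on the same strand over 2364 bases, where reads were not counted for either.

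The median over the genes of chromosome 6 was lower in 2 of the knockout clones, so the genes around Mxd1 were examined. Over the chromosome, knockout replicates 2 and 3 had median log2 differences from the non-targeted mean of -0.33 and -0.32, and replicate 1 of 0.01. Over the 40 tested genes nearest Mxd1, 20 on each side, it was 0.06 and -0.02 in replicates 2 and 3, where Mxd1 itself stood at -0.43 and -0.29. The genes nearest Mxd1 did not show the shift of the chromosome median, so the shift was not uniform along the chromosome. For the other 8 members the same 40-gene medians lay between -0.11 and 0.15 in the knockout clones.

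Mxd4, a Mad protein of differentiating and non-dividing cells, was the one antagonist with a positive log2 fold change. It had 4.37, 6.95 and 9.92 CPM in the knockout clones, and 6.05, 5.12 and 4.52 CPM in the non-targeted lines (chromosome 5, 34173883 to 34187720). Replicates 2 and 3 lay above and replicate 1 below every non-targeted clone. This gave a log2 fold change of 0.44 ± 0.31 (edgeR adjusted p = 0.400), and 0.11 without knockout replicate 3. It was 0.69 without knockout replicate 1. These levels rest on 57 to 138 reads per library.

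Mnt, a broadly expressed Max partner that sets the baseline against which Myc acts, was the most abundant antagonist. It had 132, 172 and 160 CPM in the knockout clones, and 161, 173 and 183 CPM in the non-targeted lines (chromosome 11, 74830920 to 74845725). Knockout replicate 1 was the lowest library, replicate 3 lay just under the lowest non-targeted clone and replicate 2 within their range. Its log2 fold change was -0.16 ± 0.11 (edgeR adjusted p = 0.405), with an interval from -0.42 to 0.10, and -0.06 without knockout replicate 1.

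Mlx, the hub of the parallel network, also lies on chromosome 11 (101087277 to 101092207). It had 35.50, 33.3 and 34.1 CPM in the knockout clones, and 35.51, 37.3 and 37.7 CPM in the non-targeted lines. The groups did not overlap, but knockout replicate 1 and non-targeted replicate 1 were separated by 0.01 CPM, and scaling to library totals alone made them overlap. Its log2 fold change of -0.10 ± 0.09 (edgeR adjusted p = 0.493) had an interval from -0.31 to 0.11. Mlx varied least among the members in the knockout clones, with an SD of log2 CPM of 0.05.

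Set per kilobase of exon, the order of the members in the non-targeted clones was Mycn (70.8 ± 3.66 CPM per kilobase, SD, n = 3), Mnt (37.2 ± 2.48), Mlx (18.4 ± 0.592), Myc (15.95 ± 1.85), Mxi1 (4.08 ± 0.393), Mycl (3.91 ± 0.136), Mxd3 (3.73 ± 0.190), Mxd1 (1.42 ± 0.0271) and Mxd4 (0.616 ± 0.0912). The ranges of Mxi1, Mycl and Mxd3 overlapped, and Mlx lay barely above Myc. In the knockout clones Myc (22.5 ± 6.63 CPM per kilobase) and Mlx (17.2 ± 0.548) changed places within the spread of Myc, and so did Mycl (6.62 ± 3.67) and Mxi1 (3.50 ± 0.840). The other places were unchanged. With the shorter exon lengths of the GENCODE basic transcript set, Mxd3 (6.66 ± 0.340 CPM per kilobase) stood above Mxi1 (4.19 ± 0.402) and Mycl (4.32 ± 0.150) in the non-targeted clones, so the order of those 3 depends on the transcript set. Reads were counted over whole gene bodies, so unspliced RNA adds to these levels in genes with long introns.

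Without knockout replicate 1, edgeR called 3 of the 9 members, beside 29.1% of all genes. Myc had a log2 fold change of 0.67 ± 0.15 (edgeR adjusted p = 0.0140), Mycl 1.12 ± 0.17 (edgeR adjusted p = 0.00285) and Mxd3 -0.85 ± 0.22 (edgeR adjusted p = 0.0227). DESeq2 called the same 3 in that comparison, where it called 27.4% of its tested genes. Members without overlap then numbered 7 of 9, all except Mycn and Mnt, beside 58.4% of all genes. Leaving out any other single library gave 0 calls among the members in both tools. The share of members called without knockout replicate 1 was near that of all genes.

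The members differed in which knockout clone lay farthest from the non-targeted clones. Over all genes it was replicate 3, with correlations of log2 CPM of 0.933 to 0.961 with the non-targeted libraries. Relative to the non-targeted mean (log2), Myc stood at 0.06, 0.42 and 0.90 in knockout replicates 1 to 3, Mxd3 at -0.22, -0.60 and -1.08, Mxi1 at 0.07, -0.17 and -0.64, and Mxd4 at -0.24, 0.41 and 0.92. In these 4, and in Mycn at 0.11, 0.07 and -0.17, knockout replicate 3 lay farthest from 0. It was replicate 2 for Mycl (-0.49, 1.36 and 0.83), Mxd1 (-0.01, -0.43 and -0.29) and Mlx (-0.05, -0.14 and -0.11). For Mnt (-0.38, -0.00 and -0.10) it was replicate 1. Beside them stood the fibroblast list, with medians of 0.61, 0.79 and 1.80, and the pluripotent list, with -0.11, -0.46 and -0.78. The part of either in the levels of the members was not tested.

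**Figure D4:**
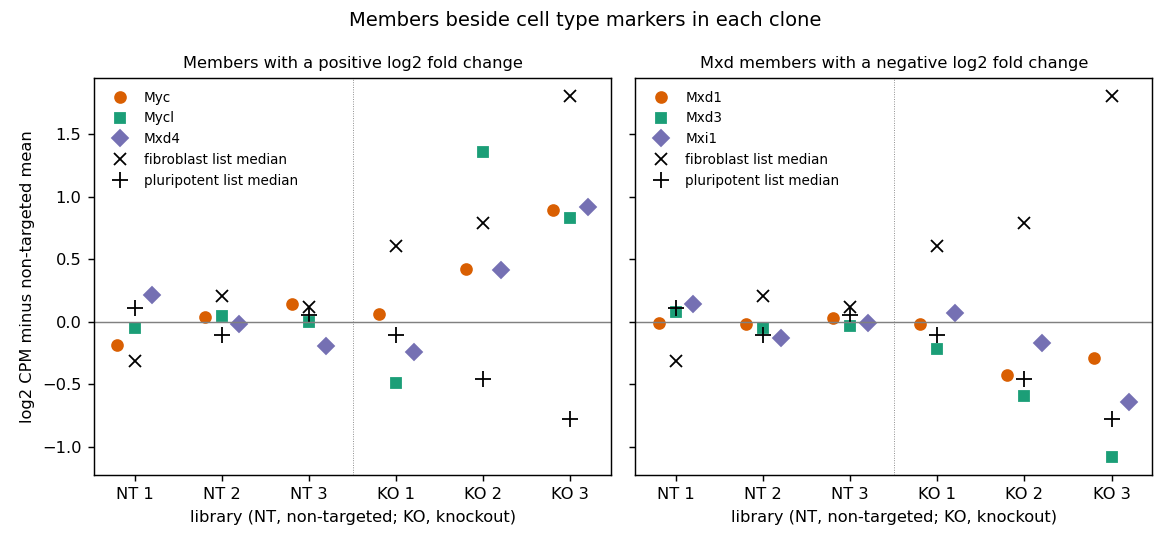
Log2 CPM minus the non-targeted mean (vertical axis) in each library for Myc, Mycl and Mxd4 (left) and Mxd1, Mxd3 and Mxi1 (right), with the median of the fibroblast (crosses) and pluripotent marker lists (plus signs). The fibroblast median is highest, at 1.80, and the pluripotent median lowest, at -0.78, in knockout replicate 3, where Myc is at 0.90 and Mxd3 at -1.08.

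The profiles most like those of the 3 Myc genes were taken from 8727 genes with a mean of at least 10 CPM, by Pearson's r of log2 CPM over the 6 libraries. For Myc they were Atp6ap1, Cnpy2 and Hvcn1 (r of 0.996, 0.996 and 0.995), for Mycn Emc4, Eral1 and Sec22c (0.990, 0.987 and 0.983), and for Mycl Sbds, Gpatch8 and Psme1 (0.997, 0.994 and 0.993). All points share the 6 libraries and their depth, and r takes no account of size: Sbds ran only from 78.9 to 96.1 CPM. No p is given, as these are the highest of many values over 6 points.

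The partners outside the family were Max, the shared dimer partner, Mga, which pairs with Max in a Polycomb-type repressor, Mlxip and Mlxipl, and Bmyc, a short relative of Myc. None of the 5 passed edgeR or DESeq2. Max had 126, 122 and 119 CPM in the knockout clones, and 137, 122 and 137 CPM in the non-targeted lines, a log2 fold change of -0.11 ± 0.08 (edgeR adjusted p = 0.401). Mga had 539, 417 and 388 CPM against 465 to 532 CPM (-0.16 ± 0.13; edgeR adjusted p = 0.465), and was called only without knockout replicate 1 (-0.32; edgeR adjusted p = 0.0195), while it stood at -0.06 without knockout replicate 3. Relative to the non-targeted mean (log2), Mga stood at 0.11, -0.26 and -0.36 by knockout clone. The 40 tested genes nearest Mga had medians of 0.14, -0.09 and -0.18. The groups did not overlap for Mlxipl, the carbohydrate-response factor known as ChREBP, with 4.29, 4.96 and 4.60 CPM against 1.69, 2.93 and 3.34 CPM (0.79 ± 0.28; edgeR adjusted p = 0.159). Nor did they for Bmyc, with 19.2, 14.3 and 15.5 CPM against 13.3, 13.5 and 13.7 CPM (0.28 ± 0.15; edgeR adjusted p = 0.294), a value of 0.14 without knockout replicate 1. So 2 of 5 partners were higher without overlap, as were 14.8% of all genes. The Mlxipl levels rest on 56 to 64 reads per knockout library and 21 to 48 per non-targeted library. Mlxip, the relative known as MondoA, had a log2 fold change of 0.08 ± 0.08.

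The cofactors of Myc came next. Of 14 Myc coactivators 13 had a log2 fold change below 0 (median -0.18, against 0.00 over all genes), and for 7 the knockout clones all lay under the non-targeted ones, as for 14.7% of all genes. None passed edgeR, and DESeq2 called 2, both lower, as were 3.15% of all its tested genes. They were the paired AAA+ ATPases Ruvbl1, with 105, 113 and 108 CPM against 127, 135 and 141 CPM (-0.30 ± 0.07; adjusted p = 0.0373 in DESeq2), and Ruvbl2, with 313, 323 and 312 CPM against 358, 390 and 439 CPM (-0.32 ± 0.09; adjusted p = 0.0494 in DESeq2). Actl6a, an actin-related subunit of remodelling complexes, had -0.33 ± 0.10 (adjusted p = 0.0659 in DESeq2). Here knockout replicate 1 lay on the same side as the others, with a coactivator median of -0.14, -0.16 and -0.29 by knockout clone and -0.04 to 0.08 by non-targeted clone.

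Of 6 corepressors of the Mxd proteins and Mnt, 5 had a log2 fold change below 0 (list median -0.16, and -0.30 without knockout replicate 1). In edgeR 0 passed, and 1 fell in DESeq2, beside 3.15% of all its tested genes. It was the scaffold Sin3a, with 263, 219 and 200 CPM against 320 to 344 CPM (-0.54 ± 0.11; adjusted p = 0.00356 in DESeq2). Hdac1, a histone deacetylase of that complex, had 163, 153 and 145 CPM against 178 to 192 CPM (-0.28 ± 0.08; adjusted p = 0.0608 in DESeq2). Sin3b had 0.13 ± 0.09. Among 14 genes of Myc protein turnover, which includes the ubiquitin ligase Fbxw7 and its opponents, none passed either tool (median -0.03). Those with the smallest p were the deubiquitinase Usp28 (204, 121 and 114 CPM against 190 to 232 CPM; -0.56 ± 0.22, and -0.88 without knockout replicate 1), the giant ubiquitin ligase Huwe1 (-0.12 ± 0.06) and Trim32 (0.50 ± 0.25, and 0.31 without knockout replicate 3), with edgeR adjusted p of 0.177, 0.239 and 0.252.

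Lists of genes that Myc is known to activate had medians near 0. In ribosome biogenesis 23 of 31 tested genes had a negative log2 fold change, with a median of -0.09. No gene of the list passed edgeR and 1 fell in DESeq2, Rrp9, a small nucleolar ribonucleoprotein component, with 143, 129 and 133 CPM against 162, 169 and 196 CPM (-0.38 ± 0.09; adjusted p = 0.0317 in DESeq2). Tcof1, the treacle factor of ribosomal gene transcription, had -0.24 ± 0.08 and Rrp12, a ribosome export factor, -0.20 ± 0.07, neither called. For 8 genes of the list the knockout clones all lay under the non-targeted ones, and for 0 above them, beside 14.7% and 14.8% of all genes. Wdr74 was listed at 0, as were Nme2 and Cdt1 of the lists that follow, and each overlaps another gene model, where shared reads were not counted.

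In nucleotide, polyamine and serine metabolism, 18 of 29 tested genes had a negative and 11 a positive log2 fold change (median -0.04). By edgeR 0 passed, and 1 rose in DESeq2, Phgdh, the first enzyme of serine synthesis, with 80.5, 102 and 103 CPM against 63.8, 76.0 and 68.0 CPM (0.46 ± 0.12; adjusted p = 0.0400 in DESeq2). Psat1, the next enzyme of that pathway, had 458, 509 and 481 CPM against 398, 436 and 414 CPM (0.21 ± 0.07; adjusted p = 0.159 in DESeq2). Paics, a purine synthesis enzyme, lay the other way, with 620, 622 and 572 CPM against 693 to 717 CPM (-0.23 ± 0.06; adjusted p = 0.0739 in DESeq2). Among 21 cell cycle targets the median was 0.01. Again 0 passed edgeR, and Ccne1, the cyclin that drives entry into S phase, fell in DESeq2 from 350 to 394 CPM to 310, 316 and 291 CPM (-0.29 ± 0.07; adjusted p = 0.0434 in DESeq2). Mcm5, a subunit of the replicative helicase, had -0.25 ± 0.08, and the kinase gene Cdk6 had 61.7, 98.5 and 119 CPM against 57.1 to 62.1 CPM (0.64 ± 0.22, and 0.42 without knockout replicate 3), neither called.

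Genes that Myc is known to repress had the largest median of the network lists. Of 15 tested genes 10 had a positive log2 fold change (median 0.55, but 0.19 without knockout replicate 3 and 0.27 without non-targeted replicate 1), and the median by knockout clone was 0.13, 0.41 and 0.73, beside fibroblast medians of 0.61, 0.79 and 1.80. The part of fibroblast RNA in it was not tested. None passed edgeR. DESeq2 called 1 in each direction, beside 5.5% of all its tested genes higher and 3.15% lower. Gadd45b, a stress-response gene, rose with 29.3, 52.2 and 43.4 CPM against 23.8 to 29.5 CPM (0.67 ± 0.21; adjusted p = 0.0477 in DESeq2). Cdkn1b, which encodes the cell cycle inhibitor p27 and is named here after its values were seen, fell with 48.99, 19.8 and 17.6 CPM against 55.6 to 59.5 CPM (-1.01 ± 0.36; adjusted p = 0.0418 in DESeq2). The genes around Cdkn1b were not examined, so a shift of its stretch of chromosome cannot be told apart from a change of this gene. The secreted matrix protein Thbs1, also made by fibroblasts, had 169, 264 and 584 CPM against 77.5 to 155 CPM (1.52 ± 0.46, but 0.87 without knockout replicate 3; adjusted p = 0.0880 in DESeq2), and Cebpa, a differentiation factor, had 2.68, 4.14 and 6.04 CPM against 1.29 to 2.36 CPM (1.23 ± 0.37). Mxd4 is a member of this list too.

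Targets of Mlx and its glucose-sensing partners had a median of -0.01 over 8 tested genes, 4 above and 4 below 0. The related arrestins Arrdc4 and Txnip, which restrain glucose uptake, fell in DESeq2 (2 of 8, beside 3.15% of all its tested genes). Groups did not overlap for 2 genes of the list that were higher and 1 that was lower, beside 14.8% and 14.7% of all genes. Arrdc4 had 39.2, 33.4 and 29.4 CPM in the knockout clones, and 46.1 to 51.7 CPM in the non-targeted lines, with no overlap (-0.54 ± 0.13; adjusted p = 0.0125 in DESeq2). Txnip had 247, 154 and 136 CPM against 236 to 332 CPM, with replicate 1 inside the non-targeted range (-0.69 ± 0.23; adjusted p = 0.0461 in DESeq2). Fasn, the fatty acid synthase, had 870, 1207 and 1269 CPM against 747 to 904 CPM (0.40 ± 0.15; adjusted p = 0.129 in DESeq2). None of the 3 passed edgeR (adjusted p of 0.110, 0.145 and 0.163).

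**Figure D5:**
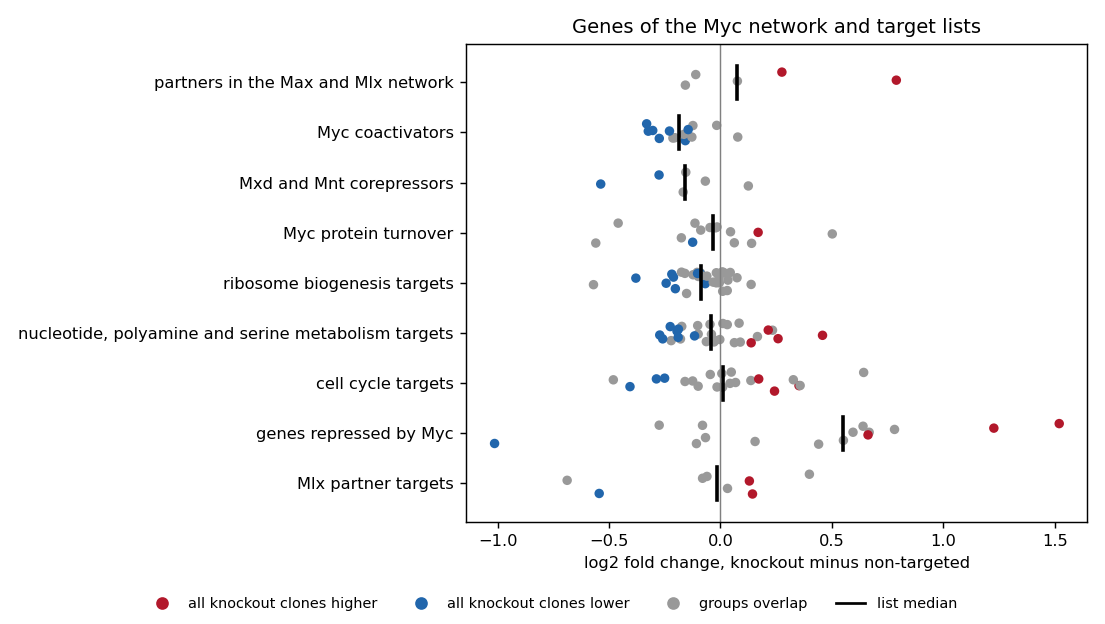
Log2 fold change of each tested gene (points) in the lists of Myc network partners, cofactors and targets, with the list median as a black bar; red and blue points are genes whose knockout clones all lay above or below the non-targeted clones. The medians run from -0.18 for the coactivators to 0.55 for genes repressed by Myc.

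The DESeq2 calls in these lists, with those of the closing section, came to 13 genes and depended on single libraries. Each list's calls stand beside 5.5% of all its tested genes called higher and 3.15% lower by DESeq2. All 13 were called without knockout replicate 1. Without knockout replicate 2, non-targeted replicate 1 or non-targeted replicate 3, 0 of the 13 were called, without knockout replicate 3 only Sin3a, and without non-targeted replicate 2 there were 5.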

How the data were processed

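Polyadenylated RNA of 6 clones (3 per group) was sequenced from a stranded mRNA library kit, per the labels' protocols, all in the same batch. The authors deposited whole-number read counts per gene, without normalization. Per the file headers, they were made with featureCounts 1.6.2 in reverse-stranded mode over whole gene bodies of GENCODE M15 (GRCm38.p5). Reads that map to several places or overlap several genes on a strand were left out. Per the submitters' processing notes, HISAT2 2.1.0, featureCounts 1.5.3 and DESeq2 1.18.1 were used with mm10.

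From these counts, genes were kept with filterByExpr (minimum count 10, minimum total 15), scaled with TMM and tested with edgeR 4.0.16 (quasi-likelihood test, group as the only term, Benjamini-Hochberg adjustment over all genes). DESeq2 1.42.0 and limma 3.58.1 voom were alternatives, in R 4.3.3, as were other scalings, no filter, a replicate block and each library left out. The edgeR and DESeq2 steps were tested on simulated data. Log2 CPM used a prior count of 2. Exon lengths come from GENCODE M21 (GRCm38).

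The members and lists were chosen with earlier results of these data known. Named are the members, Tet1, the 5 partners, up to 3 genes per list with the smallest edgeR p, and the 3 profiles most like each Myc gene.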

Additional observations from a re-analysis of the deposited data

How the results depend on the processing

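The 9 log2 fold changes were recomputed under 12 alternatives, 108 values, of which 100 kept direction and side of the threshold and 3 (Myc, Mycl and Mxd3 without knockout replicate 1) passed it. Mycn turned negative in 5: -0.00044 in DESeq2, -0.0028 with no filter on low counts, -0.052 without knockout replicate 1, -0.018 without knockout replicate 2 and -0.039 without non-targeted replicate 2, in a leave-one-out range of -0.052 to 0.091. The same was done for 42 other genes: Tet1, the 5 partners and the up to 3 genes of each list with the smallest edgeR p. The marker lists were included, but not Cdkn1b or the genes of similar profile. The direction was the same in all 504 values, and 53 of these passed the threshold. Genes picked for a small p in these same libraries are likely to keep their direction, so this is not evidence of stability. With 1 library left out, edgeR called 0 to 3 members and 0 to 4404 of all genes, DESeq2 0 to 3 members, and 1 to 7 members did not overlap, the highest value each time without knockout replicate 1. Over all genes edgeR called 0, DESeq2 1232, voom 1 and edgeR with no filter 159. Scaling to library totals left 1 member without overlap. With the replicate number as a block edgeR called 3 genes and 0 members. The numbers share no stated origin, and deviations of same-numbered clones correlated at 0.458, 0.109 and -0.0239, so the samples were not treated as paired. The alternative exon lengths, and the alternatives for genes other than the members, were chosen after seeing the data. The cause of these differences was not tested. Members with few reads (Mxd1, Mxd3 and Mxd4, 57 to 159 per library) have the least precision from counting.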

Other observations

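LIF and Wnt signals both act on Myc in mouse pluripotent cells. Among 11 genes, 8 of the LIF and Stat3 route and 3 Wnt effectors (Lef1, Tcf7l1 and Ctnnb1), 7 had a log2 fold change below 0 (median -0.17, and -0.07 to -0.20 with 1 library left out). None passed edgeR, and Stat3, the transcription factor that carries the LIF signal, fell in DESeq2, with 162, 120 and 123 CPM in the knockout against 182 to 211 CPM (-0.56 ± 0.13; adjusted p = 0.0116 in DESeq2). Jak1, the kinase upstream of it, had 89.5, 72.6 and 74.5 CPM against 60.5 to 67.1 CPM (0.31 ± 0.10, and 0.20 without knockout replicate 1; adjusted p = 0.134 in DESeq2), and Lef1, a nuclear effector of Wnt signals, 92.5, 76.2 and 72.1 CPM against 53.5 to 66.1 CPM (0.38 ± 0.13; adjusted p = 0.115 in DESeq2). In both, knockout replicate 1 was the highest library.

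Among 8 genes of the Lin28 and let-7 axis, which sets the stability of Mycn and other growth transcripts, 7 had a positive log2 fold change (median 0.06, and 0.18 without knockout replicate 1). With edgeR 0 passed, and DESeq2 called 2, both higher, as were 5.5% of all its genes. Hmga2, a chromatin protein repressed by let-7, rose with 51.8, 95.2 and 117 CPM against 33.5 to 49.5 CPM (1.08 ± 0.29; adjusted p = 0.00723 in DESeq2). By clone it stood at 0.33, 1.21 and 1.51 (log2) above the non-targeted mean, beside fibroblast list medians of 0.61, 0.79 and 1.80 and pluripotent list medians of -0.11, -0.46 and -0.78, whose part in it was not tested. Zcchc11, a uridylyl transferase that works with Lin28a, rose with 131, 127 and 118 CPM against 90.3 to 104 CPM (0.36 ± 0.08; adjusted p = 0.0289 in DESeq2). Lin28b had 50.1, 55.4 and 75.6 CPM against 35.4 to 59.5 CPM (0.43 ± 0.23), with the groups overlapping, and its value was 0.23 without knockout replicate 3. Leaving out replicate 3 of the non-targeted lines gave 0.28, and leaving out their replicate 2 gave 0.68. Mycn itself lay at 0.01 ± 0.09.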
